A study of Mus musculus with 7 samples.

Results

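The genes described here encode the insulin-like growth factors (Igf1 and Igf2), their signalling receptor (Igf1r) and 6 of the proteins that bind them (Igfbp2, Igfbp3, Igfbp4, Igfbp5, Igfbp6 and Igfbp7). These 9 of the 8252 genes named on the array were chosen by symbol in the platform annotation, and 14 of its 12422 probe sets carried 1 of the symbols. Of the 14, 13 had a single symbol. The remaining one, 100566_at, was the sole probe set with the symbol Igfbp5 and was annotated to Tmem119, a membrane protein gene, as well. It is therefore called the Tmem119/Igfbp5 probe set, and its signal cannot be credited to either gene alone.

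All mice were female CD-1 outbred animals, 10 to 12 weeks old at the start, and all groups received 6 enemas. Treated mice received TNBS, a hapten that provokes colitis, in ethanol, and control mice received saline. No group given ethanol alone was analysed here. Colon was taken about 4 cm from the anus. For TNBS, 6 mice were sampled at week 6 (3 days after the last enema), 4 at week 8 (after 2 weeks), 5 at week 10 (after 4 weeks) and 4 at week 12 (after 6 weeks), and the RNA of each time was pooled. For saline, RNA of 5 mice sampled at week 6 was read as 1 pool, run on 2 arrays. A later saline pool combined 2 mice of week 8 with 2 of week 10, so week 12 had no saline mice of its own time. Each group was thus 1 pool of RNA. The design text and labels were read to mean that the 2 week 6 saline arrays repeat 1 pool. On that reading they measure technical spread alone, and the spread between mice is unknown.

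Insulin-like growth factors are small secreted peptides that drive growth and survival of many cell types through the receptor tyrosine kinase encoded by Igf1r. In tissue fluids most of the peptide is held by binding proteins, which block, carry or locally release it and are themselves cut by proteases. In the gut these factors and binding proteins are made largely by mesenchymal cells, among them smooth muscle cells and fibroblasts, and act on epithelium and muscle.

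Values are array signals on a linear scale, scaled by the authors to a target of 150 on each array. Median signals of the 7 arrays were between 51.8 and 61.2, and a floor of 50 was set before taking log2. A probe set was kept when its highest pool reached 100, which 5463 probe sets did, 9 of the 14 among them. These 9 covered Igf1, Igf2, Igf1r, Igfbp2, Igfbp3, Igfbp4 (2 probe sets), Tmem119/Igfbp5 and Igfbp6. The week 8 TNBS array had the lowest median and correlated at r = 0.952 to 0.971 with the others across probe sets, while both week 6 saline arrays had r = 0.987. The 3'/5' signal ratio of beta-actin, read as a sign of RNA quality, lay between 1.14 and 1.24 on the 3 arrays of week 6 and between 0.798 and 0.818 on the 4 later ones. Both saline arrays of week 6, read as repeats of 1 pool, differed 2-fold or more for none of the 9 probe sets, where 0.439% of all were at least 2-fold higher and 0.439% lower on the second. As for the tissue label, 11 of 13 probe sets of the epithelium markers and 9 of 10 of the smooth muscle markers passed the filter.

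**Figure D1:**
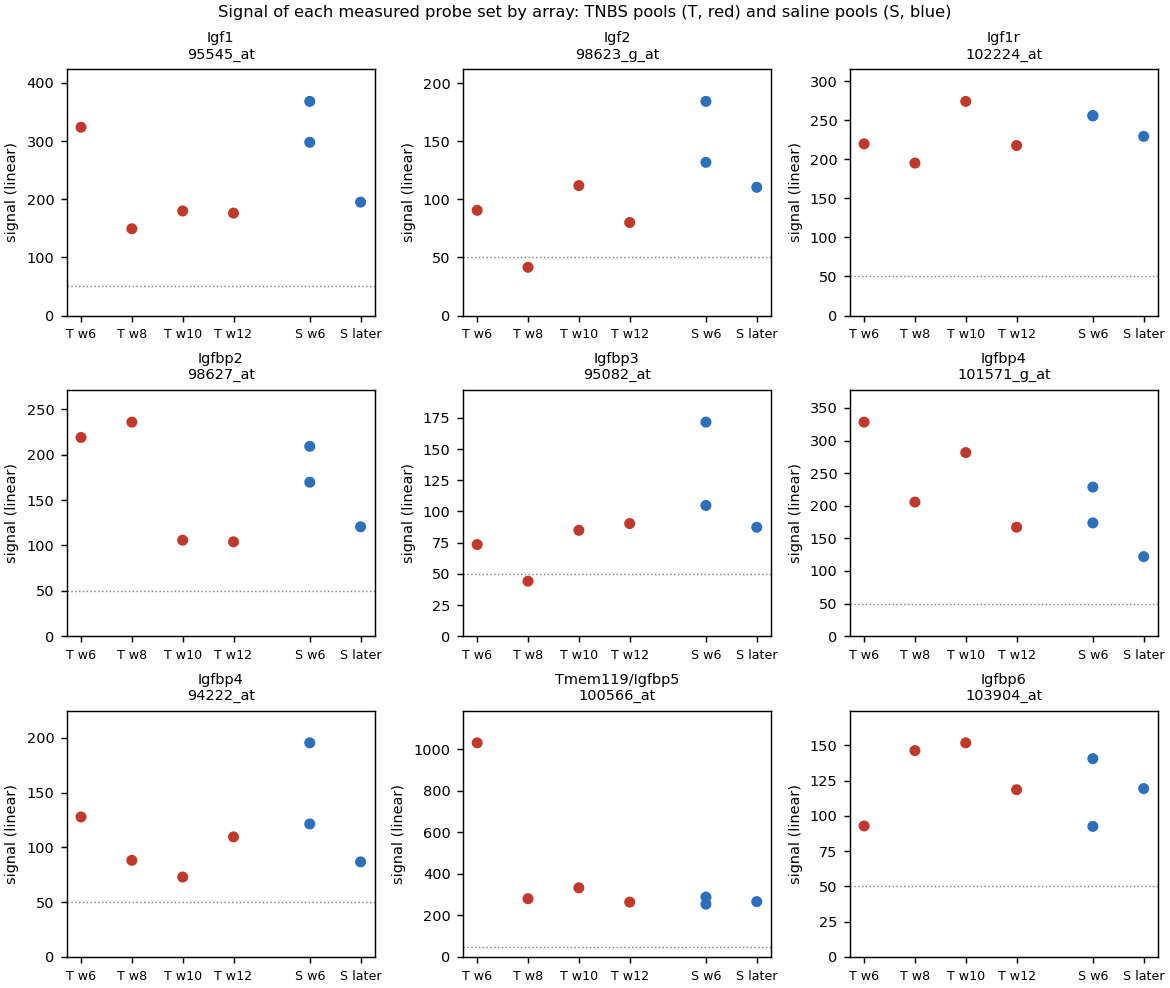
Signal on a linear scale (vertical axis) of the 9 probe sets that passed the filter, 1 panel each, with 1 point for each array; TNBS pools (T, red) stand left of saline pools (S, blue), and the dotted line is the floor of 50. The Tmem119/Igfbp5 probe set stood at 1030.5 in the week 6 TNBS pool and between 254.1 and 332.7 on the other 6 arrays, and Igf1 stood higher on the 3 week 6 arrays than on the 4 later ones.

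Among the 9 probe sets, the difference from saline largest in size was that of the Tmem119/Igfbp5 probe set at week 6. The Tmem119/Igfbp5 probe set had a signal of 1030.5 in the week 6 TNBS pool, against 254.1 and 288.3 on the week 6 saline arrays, which is 3.81-fold higher. Igfbp5 encodes a binding protein that attaches to extracellular matrix and is known as a product of intestinal smooth muscle cells and fibroblasts. In the later TNBS pools the signal was 280.3 at week 8, 332.7 at week 10 and 263.9 at week 12, against 266.4 in the later saline pool, so these 3 pools differed from saline by no more than 1.25-fold. The repeated saline arrays differed by 1.14-fold. At week 6, 2.71% of all probe sets were higher by 2-fold or more and 1.1% lower by as much, and this probe set ranked 37th from the highest of the 5463, while no other of the 9 passed 2-fold in either direction. Its log2 difference of 1.93 kept between 1.75 and 2.02 under the 11 alternatives tried.

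The difference between the effect at week 6 and the later effect was tested in limma. For the Tmem119/Igfbp5 probe set it was 1.80 ± 0.37 (SE) on the log2 scale, with an unadjusted p of 0.00426 and a Benjamini-Hochberg adjusted p of 1.0 over the 5463 probe sets. No probe set of the array passed an adjusted p of 0.05 for this term (0%), and 1.08% were higher and 0.604% lower at an unadjusted p under 0.05. Cell type markers also differed from saline at week 6. Of the 7 measured macrophage probe sets, 4 were at least 2-fold higher, beside 2.71% of all probe sets. The summed signal of all 15 was 6607 in the week 6 TNBS pool against 3691 and 3184 on the saline arrays. Adgre1 and Itgam, genes of macrophage surface proteins, lay under the floor on every array. The 19 fibroblast probe sets summed to 8402 against 6448 and 6166. Of the 13 measured, 9 were above saline, with 1 at least 2-fold higher. Their median log2 difference was 0.52, beside -0.02 over all probe sets. The measured probe sets of Fbln1 were all below saline, at log2 differences of -0.90, -0.26 and -0.74, and a Col1a2 probe set was at -0.09. Vim and Pdgfrb lay under the floor on every array. The 10 smooth muscle probe sets summed to 13227 against 15121 and 14739. Of the 9 measured, 1 was above saline, and the median log2 difference was -0.16. Markers of pancreas were high as well, at 5796 over 6 probe sets against 2250 and 1900. Of these, 5 were at least 2-fold higher. The other, Cela1, made up most of the saline sums and read 1875.9 against 1842.6 and 1601.8. In bulk tissue, a change in the share of a cell type cannot be told apart from a change in RNA per cell, and the part of these cell types in the signal was not tested.

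Over the 6 pools, the named genes whose log2 values followed the Tmem119/Igfbp5 probe set most closely were Pcp2 (r = 0.995), Socs3 (r = 0.993) and Osmr (r = 0.991). Osmr, a receptor subunit for oncostatin M, had a signal of 172 in the week 6 TNBS pool against 48.6 and 38.6 on its saline arrays. Its later TNBS values were 56.1, 72.1 and 52.9 against 41.5. These correlations rest on the week 6 TNBS pool standing apart. Pcp2, Socs3 and Osmr all passed the filter through that pool alone. Pcp2 and Socs3 read 61.1 or lower on every other array, near or under the floor of 50, so their high r was largely set in advance. Of 4847 named probe sets, 67 had r of at least 0.9 with the Tmem119/Igfbp5 probe set.

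Igfbp4, which encodes a binding protein that inhibits the growth factors until it is cut by the protease PAPP-A, was measured by 3 probe sets that did not behave alike. On 101571_g_at the signal was 328.2, 205.6, 281.5 and 167.1 in the TNBS pools of weeks 6, 8, 10 and 12, against 228.6 and 173.7 on the week 6 saline arrays and 122.0 in the later saline pool. The 4 TNBS pools were each above their matched saline pool, by 1.65-fold, 1.69-fold, 2.31-fold and 1.37-fold. Of all probe sets, 11.1% were higher in all 4 comparisons. At week 10 it was the one probe set of the 9 past 2-fold, where 1.01% of all were higher by that much and 0.915% lower. The later saline pool was itself the lowest array, and against the week 6 saline pool the log2 differences of weeks 8, 10 and 12 were 0.05, 0.50 and -0.25.

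On 94222_at, a second Igfbp4 probe set, the signal was 127.7, 88.1, 72.9 and 109.5 in the TNBS pools, against 121.3 and 195.3 on the week 6 saline arrays and 86.7 in the later saline pool. The log2 differences were -0.27, 0.02, -0.25 and 0.34, with no common direction, and the repeated saline arrays alone differed by 1.61-fold. The third probe set, 101570_at, was designed on the same source sequence as 101571_g_at and lay between 4.3 and 22.4, under the floor on all 7 arrays. Over the 6 pools the log2 values of the 2 measured probe sets had r = 0.11. Of the 2 Igfbp4 probe sets that could show a difference, 1 was thus above saline at all 4 times. The pattern of 101571_g_at was followed most closely by Postn (r = 0.996), which encodes the matrix protein periostin, with Otud4 (r = 0.983) and Gstm5 (r = 0.970) next. Postn read between 585.8 and 777.8 on the 7 arrays, a smaller fold range than that of 101571_g_at (122.0 to 328.2). The pattern of 94222_at was followed by Uhmk1 (r = 0.987), Cmtm7 (r = 0.987) and Rprd1b (r = 0.980). An r of at least 0.9 was reached by 17 of 4847 named probe sets with 101571_g_at and by 53 with 94222_at.

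The probe set of Igfbp2, which encodes a circulating binding protein, read 219.0, 235.9, 105.8 and 104.0 in the TNBS pools, against 209.2 and 169.7 on the week 6 saline arrays and 120.6 in the later saline pool. The week 8 TNBS pool was 1.96-fold higher than its saline pool, just under the threshold, and the other 3 comparisons lay within 1.16-fold. Equal array medians put it past 2-fold at week 8 (log2 1.14), and against the week 6 saline pool it was at 0.32. Markers of pancreas also stood high in the week 8 pool, at a summed signal of 7628 over 6 probe sets against 1964 in saline. Of these, 5 were at least 2-fold higher, and Cela1 read 1816.1 against 1235.4. The part of the pancreas markers in the Igfbp2 signal was not tested. In the mouse genome Igfbp2 lies next to Igfbp5, with no annotated gene between them.

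Igfbp3, the main carrier of these factors in blood, was lower at the 2 early times. On 95082_at the signal was 73.5, 44.1, 84.9 and 90.3 in the TNBS pools, against 104.8 and 171.6 on the week 6 saline arrays and 87.3 in the later saline pool. The week 6 pool was lower by 1.82-fold. The week 8 pool, under the floor, was lower by at least 1.75-fold, and the last 2 pools were within 1.03-fold. The repeated saline arrays differed by 1.64-fold, nearly as much, and the probe set passed the filter through the week 6 saline pool alone. Its log2 difference at week 6 was -0.51 against the first saline array alone and -1.22 against the second. When values under 100 were set to 100, the log2 difference was -0.42 at week 6 and 0 at week 8. The second probe set, 95083_at, did not pass, at 48.0, 26.6, 53.9 and 39.3 against 120.5 and 68.1 at week 6 and 38.3 later.

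Igfbp6, which encodes a binding protein that prefers IGF-II, had signals of 92.8, 146.2, 151.7 and 118.5 in the TNBS pools, against 92.5 and 140.5 on the week 6 saline arrays and 119.3 in the later saline pool. None of its differences exceeded 1.27-fold, less than the 1.52-fold between the repeated saline arrays. Igfbp7, which encodes a matrix-associated relative with weak affinity for these factors, lay between 16.7 and 54.3 and above the floor on 1 array, the second of week 6 saline, so no difference could be read.

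**Figure D2:**
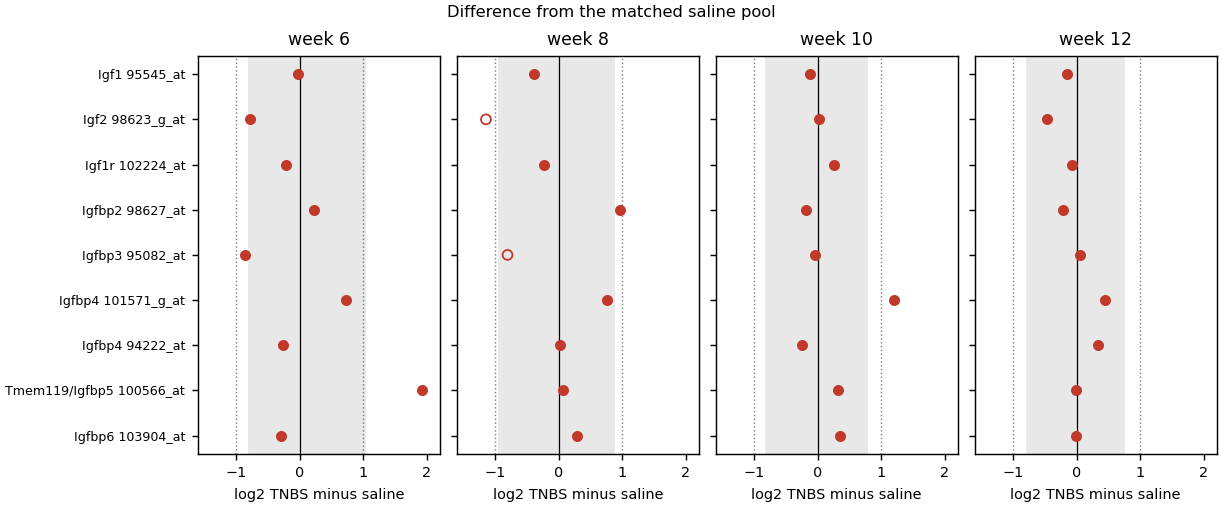
Log2 difference between each TNBS pool and its matched saline pool (horizontal axis) for the 9 probe sets that passed the filter, 1 panel a week; open circles have the TNBS pool at the floor, the grey band spans percentiles 2.5 to 97.5 of all 5463 probe sets and dotted lines mark 2-fold. Tmem119/Igfbp5 at week 6 (1.93), Igf2 at week 8 (-1.14) and Igfbp4 101571_g_at at week 10 (1.21) lie past 2-fold.

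Of the ligands, Igf1 differed more between sampling times than between TNBS and saline. On 95545_at the signal was 323.8 in the week 6 TNBS pool against 368.3 and 297.9 on its saline arrays, inside the range of the repeated arrays. The later TNBS pools read 149.2, 179.8 and 176.1 against 195.0 in saline, at 1.31-fold, 1.08-fold and 1.11-fold lower. All 4 differences were below 0, as for 15.6% of all probe sets, and with equal array medians the one at week 10 was above 0 (log2 0.02). A second Igf1 probe set, 95546_g_at, read 47.1, 53.9, 31.7 and 19.2 in the TNBS pools, against 19.1 and 22.6 on the week 6 saline arrays and 20.7 later. It was over the floor in the week 8 pool alone.

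Igf2, a growth factor abundant in the fetus, was measured by 98623_g_at, which read 90.6, 41.5, 111.9 and 80.1 in the TNBS pools. The week 6 saline arrays read 184.4 and 131.9 and the later saline pool 110.4. The week 6 TNBS pool was 1.72-fold lower than saline, the week 8 pool at least 2.21-fold lower, and the week 12 pool 1.38-fold lower, while the week 10 pool was within 1.01-fold. At week 8 it was the one probe set of the 9 past 2-fold, where 1.85% of all were higher by that much and 1.89% lower. Its log2 difference at week 8 was -0.14 when values under 100 were set to 100, and -0.81 under log2(value + 50). The other probe set, 98622_at, stood at 23.1 or lower on every array. Over the 6 pools Igf2 and Igfbp3 95082_at had r = 0.92, the highest of the 36 pairs of measured probe sets; both were lowest on the week 8 array, and all pairs share the scaling of their arrays.

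Igf1r, the receptor through which both growth factors signal, differed little between pools. It read 219.8, 195.2, 274.2 and 217.7 in the TNBS pools, against 256.1 and 255.6 on the week 6 saline arrays and 229.4 in the later saline pool. The differences were between -0.23 and 0.26 on the log2 scale, and the highest pool exceeded the lowest by 1.40-fold, the smallest range of the 9. At week 12 none of the 9 probe sets was at least 2-fold different, where 0.915% of all were higher and 1.03% lower.

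Over the whole array the counts past 2-fold were 148 higher and 60 lower at week 6, 101 and 103 at week 8, 55 and 50 at week 10 and 50 and 56 at week 12. With quantile normalization the week 8 split was 113 and 58. With equal array medians the splits were 170 and 43 at week 8, 95 and 33 at week 10 and 66 and 47 at week 12, where this scaling moved the median difference over all probe sets up by 0.17, 0.13 and 0.06, and values at the floor by less. The 9 probe sets had a median log2 difference of -0.22 at week 6, 0.02 at week 8, 0.02 at week 10 and -0.01 at week 12, beside -0.02, -0.07, -0.02 and -0.01 over all. In the pooled limma model of the 4 TNBS pools against the 2 saline pools, no probe set of the array passed an adjusted p of 0.05 (0% in either direction). At an unadjusted p under 0.05, 2.53% were higher and 2.53% lower. Of the 9, Igfbp4 101571_g_at (log2 0.77 ± 0.23, SE, unadjusted p = 0.0112) and Tmem119/Igfbp5 (0.85 ± 0.36, unadjusted p = 0.0451) were among these, both with an adjusted p of 0.893 in limma. The Tmem119/Igfbp5 effect rested on week 6: without that pool it was 0.13. In the limma model of the 3 later TNBS pools no probe set passed either (0%), with 0.659% higher and 1.24% lower at an unadjusted p under 0.05 and none of the 9 among them. The largest later effect of the 9 was that of Igfbp4 101571_g_at, at 0.80 ± 0.35 (unadjusted p = 0.0687, adjusted p = 1.0).

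The saline pools themselves differed in these genes. Of the 9 probe sets, 8 were lower in the later saline pool than in the week 6 saline pool, beside 48.7% of all probe sets. The median log2 difference was -0.62, beside 0.01 over all. By a limit chosen after the values were seen, 5 of the 9 were at least 1.5-fold lower, beside 6% of all. These were Igfbp4 94222_at (1.78-fold), Igf1 (1.70-fold), Igfbp4 101571_g_at (1.63-fold), Igfbp2 (1.56-fold) and Igfbp3 95082_at (1.54-fold). The Igfbp4 probe sets are 2 readings of 1 gene. Igfbp3 95082_at passed the filter through the week 6 saline pool alone, so its place in these counts carries no weight. It read 104.8 and 171.6 on the week 6 saline arrays against 87.3 later. Igfbp4 94222_at read 121.3 and 195.3 against 86.7. None of the 9 was 2-fold lower, beside 1.17% of all, and none 2-fold higher, beside 1.03%. Tmem119/Igfbp5 was within 1.02-fold and Igfbp6 within 1.05-fold. The saline pools alone, 1 at each time, allow no test, and the spread of the repeated arrays reached 1.64-fold for Igfbp3 and 1.61-fold for Igfbp4 94222_at.

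**Figure D3:**
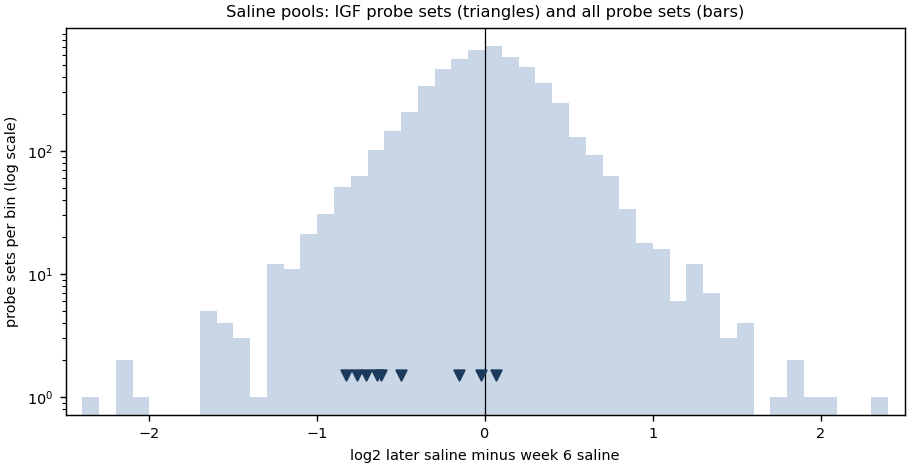
Histogram of the log2 difference, later saline pool minus week 6 saline pool (horizontal axis), over all 5463 probe sets (bars, number of probe sets in each bin of 0.1 on a log scale), with the 9 IGF probe sets as triangles set at 1 height. The triangles lie between -0.83 and 0.07, 8 of 9 below 0.

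For Igf1 the difference extended to the TNBS pools. The 3 week 6 arrays read 297.9 to 368.3 and the 4 later arrays 149.2 to 195, with no overlap, whether TNBS or saline had been given. Igfbp4 94222_at separated the arrays likewise, at 121.3 to 195.3 and 72.9 to 109.5. Of all probe sets, 10.2% had all week 6 arrays above all later ones, and 8.35% the reverse. In the pooled limma model the later arrays were lower for Igf1 by a log2 of -0.87 ± 0.18 (SE, unadjusted p = 0.00112, adjusted p = 0.281), and no probe set of the array passed an adjusted p of 0.05 for this term (0%), with 6.13% lower and 4.89% higher later at an unadjusted p under 0.05. Of the 9, 4 were lower later at that unadjusted threshold and none higher. Besides Igf1 these were Tmem119/Igfbp5 (-1.10, unadjusted p = 0.0149), Igfbp4 101571_g_at (-0.66, unadjusted p = 0.0233) and Igfbp4 94222_at (-0.64, unadjusted p = 0.0310), with adjusted p between 0.390 and 0.418 in limma. For Tmem119/Igfbp5 the saline pools differed by -0.02 alone, and its week 6 TNBS pool was the one high array. Age, the time since the enemas, other differences between the sets of mice and the beta-actin ratio moved together with this split and cannot be told apart. The genes that followed Igf1 most closely over the 6 pools were Ercc2 (r = 0.992), Pld3 (r = 0.989) and Tmem176b (r = 0.988), and 129 of 4847 named probe sets had r of at least 0.9 with it. Igf2 was followed by Git1 (r = 0.998), Dhrs4 (r = 0.993) and Flii (r = 0.990), Igfbp2 by Glipr2 (r = 0.982), Slc35c2 (r = 0.976) and Tceal9 (r = 0.972), and Igfbp3 by Vps4a (r = 0.992), Yipf3 (r = 0.991) and Mroh1 (r = 0.984). Glipr2 read 50.8 and 21.4 in the week 10 and week 12 TNBS pools and 22.8 in later saline. These values lay near or under the floor, which set part of its r. On the repeated saline arrays it read 143.4 and 79.9. An r of at least 0.9 was reached by 87 of the 4847 with Igf2, 34 with Igfbp2 and 91 with Igfbp3.

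Other genes of the axis were taken from a list of ligands, receptors, carriers, relatives, proteases, growth hormone signalling and the pathway downstream of the receptor. Of these, 44 genes were on the array with 60 probe sets, and 22 genes passed the filter with 25. Insulin (Ins2), the insulin receptor (Insr), Igfbp1 and Igfals, the acid labile subunit of the circulating complex, lay under the floor on every array. No probe set of the list passed an adjusted p of 0.05 in the 3 limma models, nor an unadjusted p of 0.05. At least 2-fold higher were 2 of 25 at week 6, none at week 8, 1 at week 10 and 1 at week 12, beside 2.71%, 1.85%, 1.01% and 0.915% of all probe sets. None was 2-fold lower, beside 1.1%, 1.89%, 0.915% and 1.03%. The median log2 differences were -0.08, -0.15, 0.09 and 0.09, beside -0.02, -0.07, -0.02 and -0.01 over all.

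Those past 2-fold were feedback inhibitors of cytokine and growth hormone receptors and an adaptor of the insulin and IGF receptors. Socs1 read 176.9, 104.3, 135 and 56.5 in the TNBS pools, against 94.3 and 73 on the week 6 saline arrays and 62.4 in the later saline pool, so it was 2.13-fold higher at week 6 and 2.16-fold at week 10. Socs3 read 105 in the week 6 TNBS pool against 5.3 and 6.7 in saline, at least 2.10-fold higher, and passed the filter through that pool alone. A second Socs3 probe set, under the filter, read 87.7 there against 29.5 and 34.3. Irs2, the adaptor, read 102.9 in the week 12 TNBS pool against 15.3 in saline, at least 2.06-fold higher, and likewise passed through that pool alone. Besides Socs1 (0.78) and Socs3 (0.49), the pooled log2 effects largest in size were those of Mtor, a growth kinase, on both its probe sets (-0.48 and -0.38), Jak2, the kinase of the growth hormone receptor (0.46), and Pik3ca, a catalytic subunit of PI 3-kinase (-0.30 on 1 probe set and -0.18 on the other). In the same order, the repeated saline arrays differed by 1.68-fold and 1.22-fold for Mtor, 1.61-fold for Jak2 and 1.66-fold and 1.11-fold for Pik3ca. A second Jak2 probe set lay under the floor on every array. Igf2r, a receptor that clears IGF-II without growth signalling, read 281.3, 360.2, 283.7 and 293.7 in the TNBS pools, against 355.7 and 360.7 on the week 6 saline arrays and 242.1 in the later saline pool.

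**Figure D4:**
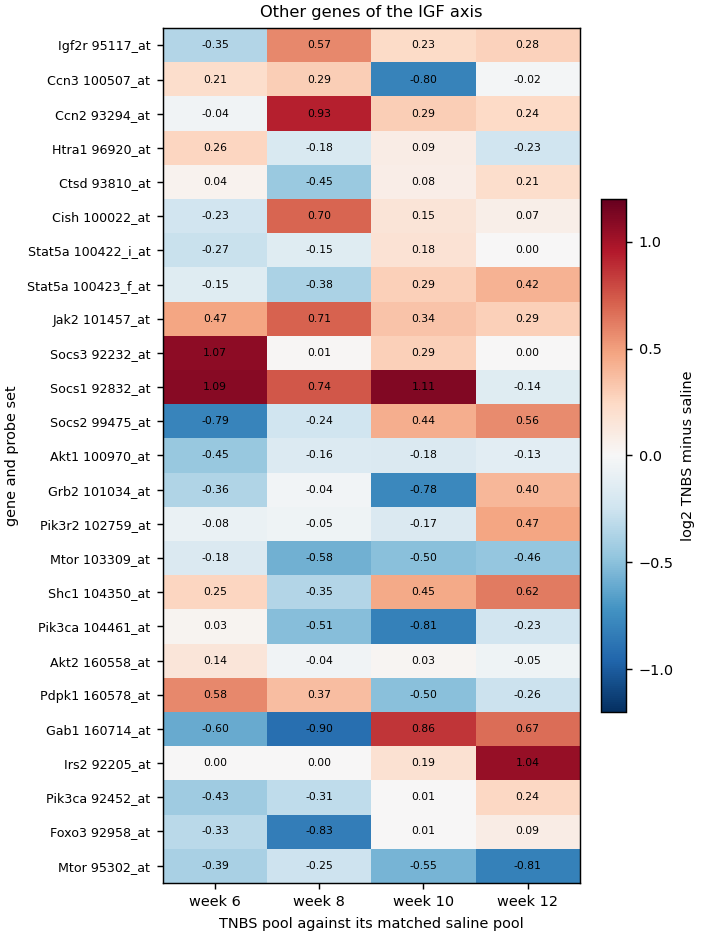
Log2 difference between each TNBS pool and its matched saline pool (columns, weeks 6 to 12) for the 25 measured probe sets of the other genes of the axis (rows), in red where the TNBS pool was higher and blue where it was lower, with the value printed in each cell and signals under the floor set to 50. Socs1 and Socs3 at week 6, Socs1 at week 10 and Irs2 at week 12 pass 1, which is 2-fold.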

How the data were processed

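Per the labels, the authors computed a linear signal intensity for every probe set in Affymetrix Microarray Suite 5.0, with each array scaled to a target of 150, from pools of RNA. Detection calls were not used. The genome build is not given in the sources used here.

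The table held 12488 probe sets, among them 66 controls that were dropped. By the 2016 platform annotation, 10833 had a single symbol, 396 had several and 1193 had none. The RefSeq table of the GRCm38.p6 assembly served for symbols and gene neighbours. Values under 50 were set to 50 before log2, both week 6 saline arrays were averaged on the log2 scale, and a probe set was kept if its highest pool reached 100. All probe sets of a gene were kept apart. Matched comparisons follow the series' design and, with single pools, have a threshold of 2-fold in place of a test.

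Models across all 5463 kept probe sets used limma 3.58.1 under R 4.3.3 (intensity trend, two-sided, Benjamini-Hochberg adjusted p, threshold 0.05). The pooled model adjusted for control set (week 6 or later) and left 3 residual degrees of freedom. The models of the later effect and of its difference from week 6 left 2, and assume that the single pools vary like the later TNBS pools. TNBS pools of different weeks stand in as replicates, so p-values measure the spread between pools, not mice. A fold against a value at the floor is given as at least that fold.

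The members and lists were chosen with earlier results of these data known. The term for later against week 6 arrays and the 1.5-fold limit were added after values were seen. All probe sets of the members are named, as are other genes of the axis past 2-fold, those with the 6 largest pooled effects, and the 3 named genes most correlated with each member whose highest pool is at least 2 times its lowest. Alternatives covered the floor, the scale, normalization, filter, probe set choice, saline pool, variance prior and left-out arrays. The models were also run on simulated data with independent noise and no floor, unlike these data, and no result here rests on that run.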

Additional observations from a re-analysis of the deposited data

Results flagged for a closer look

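One result is listed because its effects at week 6 and later differed at an unadjusted p under 0.05, which 1.08% of all probe sets did in the same direction; it did not pass the adjustment. The Tmem119/Igfbp5 probe set had a TNBS effect at week 6 that exceeded its later effect by 1.80 on the log2 scale (limma, unadjusted p = 0.00426, adjusted p = 1.0 over all probe sets). The effect was above saline in 1 of 1 pool at week 6, at 1.93, and was 0.07, 0.32 and -0.01 in the later pools. Under the 14 alternatives tried the difference was 1.64 to 1.90, with unadjusted p between 0.00238 and 0.0108 and adjusted p between 0.122 and 1.0. The week 6 effect comes from 1 TNBS pool and 1 saline pool, so the test takes its spread from the later TNBS pools and says nothing of the spread between pools at week 6.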

How the results depend on the processing

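The number of the kept IGF probe sets at least 2-fold different from saline was 1 at week 6, 1 at week 8, 1 at week 10 and 0 at week 12. At week 6 it was 2 with the later saline pool and 2 to 3 when either saline array was left out. At week 8 it was 0 with a floor of 100, under log2(value + 50) and with a filter of 200, 2 with equal medians or quantile normalization, and 3 against the week 6 saline pool. At week 10 it was 0 under log2(value + 50). At week 12 it was 0 under every alternative run. No such probe set passed the pooled or the later limma model under any alternative. For the difference between the week 6 and later effects, 1 passed with a floor of 100 (Igfbp3 95082_at), where 301 of all probe sets did, against 0. With no filter, 2 of the 14 member probe sets passed, neither of them among the 9, where 725 of all 12422 did. Both settings put more values at 1 floor, which leaves no spread between pools. The later model then called 97 and 250 of all probe sets, and the pooled model 19 with no filter and 4 without the week 12 pool, against 0. Counts past 2-fold over all probe sets, 208, 204, 105 and 106 by week, were 133, 111, 50 and 48 with a floor of 100 and 116, 93, 40 and 51 under log2(value + 50). With a filter of 200 they were 126, 58 and 60 in the 3 later weeks, and against the week 6 saline pool 407, 210 and 221. Among the model estimates of single probe sets, 21 values in 11 results had the opposite sign to the reported one, none with an unadjusted p under 0.05 (limma), and the cause was not tested. With equal medians these were Igf1r in the later model (0.11) and Igfbp2 in the difference (-0.12), which was -0.043 with quantile normalization. Leaving out 1 array or pool in turn, the pooled effect ran between -0.022 and 0.32 for Igfbp2, -0.22 and 0.052 for Igfbp4 94222_at and -0.11 and 0.21 for Igfbp6. The later effect ran between -0.15 and 0.091 for Igf1r, -0.20 and 0.39 for Igfbp2, -0.42 and 0.0043 for Igfbp3 and -0.11 and 0.18 for Igfbp4 94222_at. The difference ran between -0.56 and 0.019 for Igf2, -0.17 and 0.42 for Igfbp2, -0.28 and 0.12 for Igfbp4 101571_g_at and -0.65 and 0.038 for Igfbp4 94222_at. No paired analysis was possible because each group is 1 pool and the labels number only the 2 arrays of the week 6 saline pool. Signals of Igfbp7, Igf2 98622_at and Igfbp4 101570_at near or under the floor allow no reading.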
